A study of Homo sapiens with 3 samples.

Results

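The kinesin motors and the kinetochore, checkpoint and spindle proteins of mitosis were followed in H128 cells, an established human small cell lung cancer (SCLC) line, 48 h after transfection with siCont or with an siRNA against ESRRG, the gene of the nuclear receptor ERRγ. Members were the genes whose symbol is KIF followed by a number and, where present, a letter A to C and a further digit, together with 31 genes listed by name for a role in mitosis. The deposited table of 17448 protein-coding genes held 69 of them, 38 by the KIF symbol and 31 by name, and KIF2B was not analysed here. The groups were 3 libraries of total RNA, 1 for each of siCont, siERRG2 and siERRG3. The siERRG2 and siERRG3 libraries are labelled as different siRNAs against the same gene, and neither the labels nor the methods settle which siRNA of the study each one received.

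Kinesins are ATP-driven motors that walk along microtubules or shorten them. One set of them carries vesicles, organelles and ciliary cargo, while another builds the mitotic spindle, aligns chromosomes on it and closes cytokinesis. The kinetochore is the protein plate that ties a chromosome to spindle microtubules, and the spindle assembly checkpoint delays anaphase until every kinetochore is attached. Most genes of the mitotic set are transcribed in G2 and mitosis, through promoters with CCAAT boxes, which bind NF-Y, and a cell cycle genes homology region (CHR), which binds the MuvB complexes with B-MYB, FOXM1 or the pocket proteins. SCLC proliferates fast and has a neuroendocrine character.

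Each library held between 19861937 and 20016780 counts, and the TMM factors that scale them lay between 0.994 and 1.003. A difference is the difference of log2 CPM, the count scaled to library size, and the word called is used of a gene that differed by at least 1.2-fold. The interval given beside a ratio of scaled counts is a 95% exact binomial (Clopper-Pearson) interval, which covers counting error only. With 1 library per condition there was no replicate check, no test of a condition was possible, and every statement below compares libraries. The target ESRRG had 806 counts in siCont, 211 with siERRG2 and 230 with siERRG3, so it was lower in both libraries labelled as knockdown, by -1.94 and -1.82 on the log2 scale. Of the neuroendocrine markers, CHGA, SYP, NCAM1 and INSM1 lay between 59.92 and 183.42 FPKM in siCont, whereas the immune, endothelial and fibroblast markers lay between 0.0 FPKM for VWF and 1.75 FPKM for COL1A1. INSM1, a neuroendocrine transcription factor, had 10359 counts in siCont, 5279 with siERRG2 and 9168 with siERRG3, a log2 difference of -0.99 and -0.20. The log2 differences of the other neuroendocrine markers were 0.18 and -0.28 for CHGA, -0.05 and -0.51 for SYP and -0.14 and 0.16 for NCAM1 in siERRG2 and siERRG3, and the part of these markers in any difference between the libraries was not tested. In bulk RNA, fewer cells in G2 and mitosis and less RNA of these genes per cell cannot be told apart.

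Promoter windows of RefSeq (GRCh38.p14), from 250 bases before to 50 bases after a transcription start, were found for 56 of the 69 members, in 67 windows, since some genes have several starts. They are shown because many mitotic members share sequence there that the choice of members did not use. The windows printed were picked from these. They include no mitotic member without CHR or CCAAT letters, and no cargo transport or other kinesin with them. Below are the windows of INCENP (chr11:62123761-62124060, + strand), MAD2L1 (chr4:120066799-120067098, - strand), BUB1 (chr2:110678014-110678313, - strand), PRC1 (chr15:90994486-90994785, - strand) and KIF26A (chr14:104138337-104138636, + strand), written 5′ to 3′ along the gene. Capitals mark the CHR (TTTGAA), its C variant (TTCGAA) and the CCAAT box, on either strand, so that ATTGG is a CCAAT box on the opposite strand.
INCENP: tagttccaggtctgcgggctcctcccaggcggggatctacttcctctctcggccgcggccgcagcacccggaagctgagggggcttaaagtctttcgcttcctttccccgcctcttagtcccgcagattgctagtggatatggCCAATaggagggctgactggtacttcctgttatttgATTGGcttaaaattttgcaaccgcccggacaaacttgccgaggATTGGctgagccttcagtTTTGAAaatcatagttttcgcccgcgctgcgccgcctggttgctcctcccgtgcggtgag
MAD2L1: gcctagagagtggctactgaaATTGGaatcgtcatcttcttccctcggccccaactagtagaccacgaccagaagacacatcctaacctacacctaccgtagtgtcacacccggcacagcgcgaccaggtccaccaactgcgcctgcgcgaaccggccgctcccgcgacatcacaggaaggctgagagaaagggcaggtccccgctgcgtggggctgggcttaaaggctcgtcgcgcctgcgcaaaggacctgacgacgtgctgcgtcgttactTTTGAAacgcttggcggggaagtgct
BUB1: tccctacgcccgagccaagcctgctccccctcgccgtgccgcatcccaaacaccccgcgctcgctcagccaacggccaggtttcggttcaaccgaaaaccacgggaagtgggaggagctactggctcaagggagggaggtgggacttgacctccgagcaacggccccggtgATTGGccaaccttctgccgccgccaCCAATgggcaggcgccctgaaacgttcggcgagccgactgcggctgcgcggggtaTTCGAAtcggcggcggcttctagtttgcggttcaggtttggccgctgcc
PRC1: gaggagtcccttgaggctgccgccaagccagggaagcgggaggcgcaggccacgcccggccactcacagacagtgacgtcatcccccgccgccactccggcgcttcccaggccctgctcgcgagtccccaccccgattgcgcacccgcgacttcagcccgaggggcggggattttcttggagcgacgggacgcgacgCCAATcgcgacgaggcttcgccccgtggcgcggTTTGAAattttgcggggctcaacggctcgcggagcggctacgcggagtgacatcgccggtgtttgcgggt
KIF26A: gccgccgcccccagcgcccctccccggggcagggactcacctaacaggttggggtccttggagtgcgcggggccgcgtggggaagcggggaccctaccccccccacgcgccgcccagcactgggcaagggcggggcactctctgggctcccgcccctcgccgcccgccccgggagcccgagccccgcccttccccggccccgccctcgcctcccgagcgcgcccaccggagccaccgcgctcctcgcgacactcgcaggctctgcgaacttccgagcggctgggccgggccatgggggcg
INCENP and PRC1 carried a CHR shortly before the start and CCAAT boxes upstream of it. MAD2L1 had a CHR just after the start and a CCAAT box at -229 bases from it. BUB1 had the C variant at the start itself and CCAAT boxes at -79 and -54 bases. The KIF26A window held none of the letters searched.

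The CHR stood in 27 of the 39 windows of mitotic members (69.2%), in 26 of their 36 genes with a window. Among the cargo transport and other kinesins it stood in 1 of 28 windows (3.57%), that of KIF5B. Over all 35116 windows of the RefSeq set the share was 15.2%, and over the 16056 windows of genes kept by the count filter it was 10.7%. The C variant, which reads the same on both strands, was rare, in 1.45% of all windows. It stood in 4 windows of mitotic members (10.3%), those of BUB1 and NDC80 and both of KIF22, which overlap and share the site. Of the windows of cargo transport and other kinesins, 1 held it (3.57%), that of KIF24. The CCAAT box stood in 28 windows of mitotic members (71.8%) and in 9 of the other kinesins (32.1%), against 34.6% of all windows and 34.5% of those of the genes kept. The 34 CHR matches of mitotic members had a median position of -21.5 bases from the start, that is, before it, and 25 of them began within 50 bases of it. The 52 CCAAT boxes lay farther upstream, with a median position of -65.5 bases, and 39 began in the 100 bases before it. The ERR half-site (AAGGTCA) was in none of the 67 members' windows, against 3.92% of all windows and 2.72% of those of the genes kept, which says only that these letters are not in these windows. Both strands were searched, overlapping matches of different motifs were counted separately, and a match is a description, not a bound site. A site in overlapping windows of the same gene was counted in each, as for a CHR of ECT2 and a CCAAT box of AURKB.

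The members stood high in this transcriptome, and the mitotic ones higher than the other motors. FPKM, the deposited value that takes the length of the transcript and the size of the library into account, had a median of 21.3 over the 69 members in siCont, against 8.02 over all genes kept by the count filter. At 10 FPKM or more were 45 of the 69 members, those left out by the count filter included, a larger share than the 44.7% of all genes kept. The highest was TPX2, which activates Aurora A on spindle microtubules, with a level of 138.09 FPKM in siCont, 129.63 with siERRG2 and 133.82 with siERRG3. CDC20, the activator of the anaphase-promoting complex, followed with levels of 119.17, 108.41 and 121.42 FPKM in the same order. The third was a cargo motor, KIF1A, which carries synaptic vesicle precursors and dense-core vesicles, with levels of 115.54, 97.9 and 121.46 FPKM. TPX2 was thus first in every library, and the order of CDC20 and KIF1A differed between them. PLK1, at 109.22 FPKM, NUSAP1, at 103.18, and PRC1, at 101.86, were the other members above 100 FPKM in siCont.

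By role, the median level in siCont was 73.2 FPKM for the mitotic kinases and the chromosomal passenger complex, 48.5 for the spindle microtubule-associated proteins and 38.4 for the checkpoint and anaphase genes. It was 35.0 FPKM for the midzone and cytokinesis genes, 23.5 for the outer kinetochore and 13.8 for the mitotic kinesins. The cargo transport kinesins had a median of 6.4 FPKM, from 115.54 for KIF1A to 0.22 for KIF16B, and the remaining kinesins 1.19 FPKM. Lowest in the other mitotic lists were ESPL1, the protease separase, at 10.05 FPKM, KNL1 at 5.62, INCENP at 25.93, ASPM at 14.64 and ECT2 at 18.23. The lowest of the mitotic kinesins was KIF4B, at 0.06 FPKM. All 10 members under 1 FPKM in siCont were kinesins. Of these, 3 stayed under 10 counts in every library and were left out of the fold changes. KIF19 had 3 counts in siCont, 1 with siERRG2 and 5 with siERRG3. KIF25 had 0, 1 and 0 counts, and KIF4B had 5, 0 and 3. KIF4B is an intronless copy of KIF4A, its deposited counts were not whole numbers, and reads of the pair cannot be told apart with certainty.

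**Figure D1:**
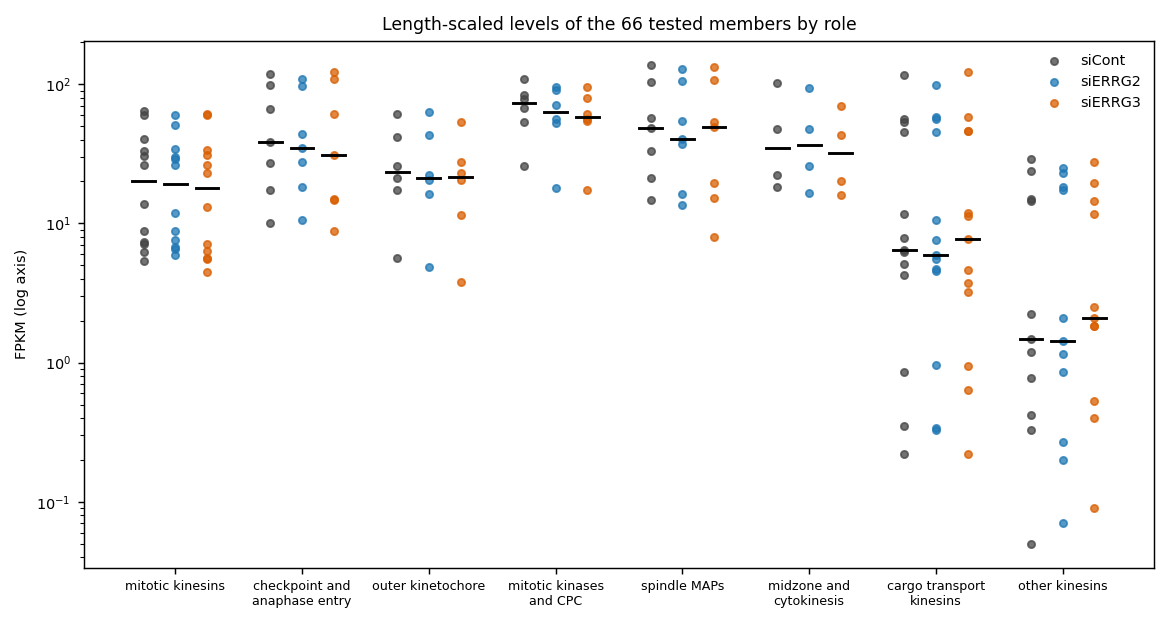
FPKM (log axis) of the 66 members kept by the count filter, by role, with 1 point per member and library and a black line at each median. The mitotic roles on the left have medians above those of the cargo transport and other kinesins in each library.

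In siERRG2 few members were called, and most of those were lower. Of the 66 members that reached 10 counts in 1 or more libraries, 9 were called lower (13.6%) and 3 higher (4.55%), while over all 14031 genes kept the shares were 19.2% lower and 16.4% higher. At a mean of 50 counts or more the split was 8 lower and 1 higher of 62 members (12.9% and 1.61%), against 15.5% and 12.8% of all such genes. The share of members called lower was below the background, and the members' difference from it was larger on the other side, in how few were called higher. Small differences leaned down, since the interval of the ratio lay below 1 in 27 of 66 members (40.9%, against 22.4% of all genes) and above 1 in 8 (12.1%, against 21.7%). The median log2 difference of the members was -0.090, against -0.000 over all genes.

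In siERRG3 more members were called. Here 21 of 66 were called lower (31.8%) and 8 higher (12.1%), against 25.1% and 23.2% of all genes. At a mean of 50 counts or more there were 20 lower and 6 higher of 62 members (32.3% and 9.68%), against 24.3% and 19.4%. The interval lay below 1 in 37 members (56.1%, against 28.5%) and above 1 in 13 (19.7%, against 27.1%), and the median log2 difference was -0.138, against -0.003. The members' high counts make their intervals narrow, which raises the share of intervals that leave out 1 in either direction. Both comparisons use the same siCont library, so an unusual count there would move both the same way, and their values are therefore given side by side without a test of likeness.

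By role, of the 42 mitotic members kept, 6 were called lower in siERRG2 (14.3%, below the 19.2% of all genes) and 0 higher (against 16.4%), with a median log2 difference of -0.100. In siERRG3 15 were called lower (35.7%, against 25.1%) and 0 higher (against 23.2%), with a median of -0.189. Their intervals lay below 1 in 23 and above 1 in 5 in siERRG2, and below 1 in 31 and above 1 in 1, that of BUB3, in siERRG3. Of the 24 cargo transport and other kinesins kept, 3 were called lower and 3 higher in siERRG2 (12.5% each), and 6 lower (25.0%) and 8 higher (33.3%) in siERRG3, where their median was 0.10. All 8 members called higher in siERRG3 were thus from outside the mitotic lists. Without a replicate, whether these counts exceed the variation between cultures cannot be said.

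**Figure D2:**
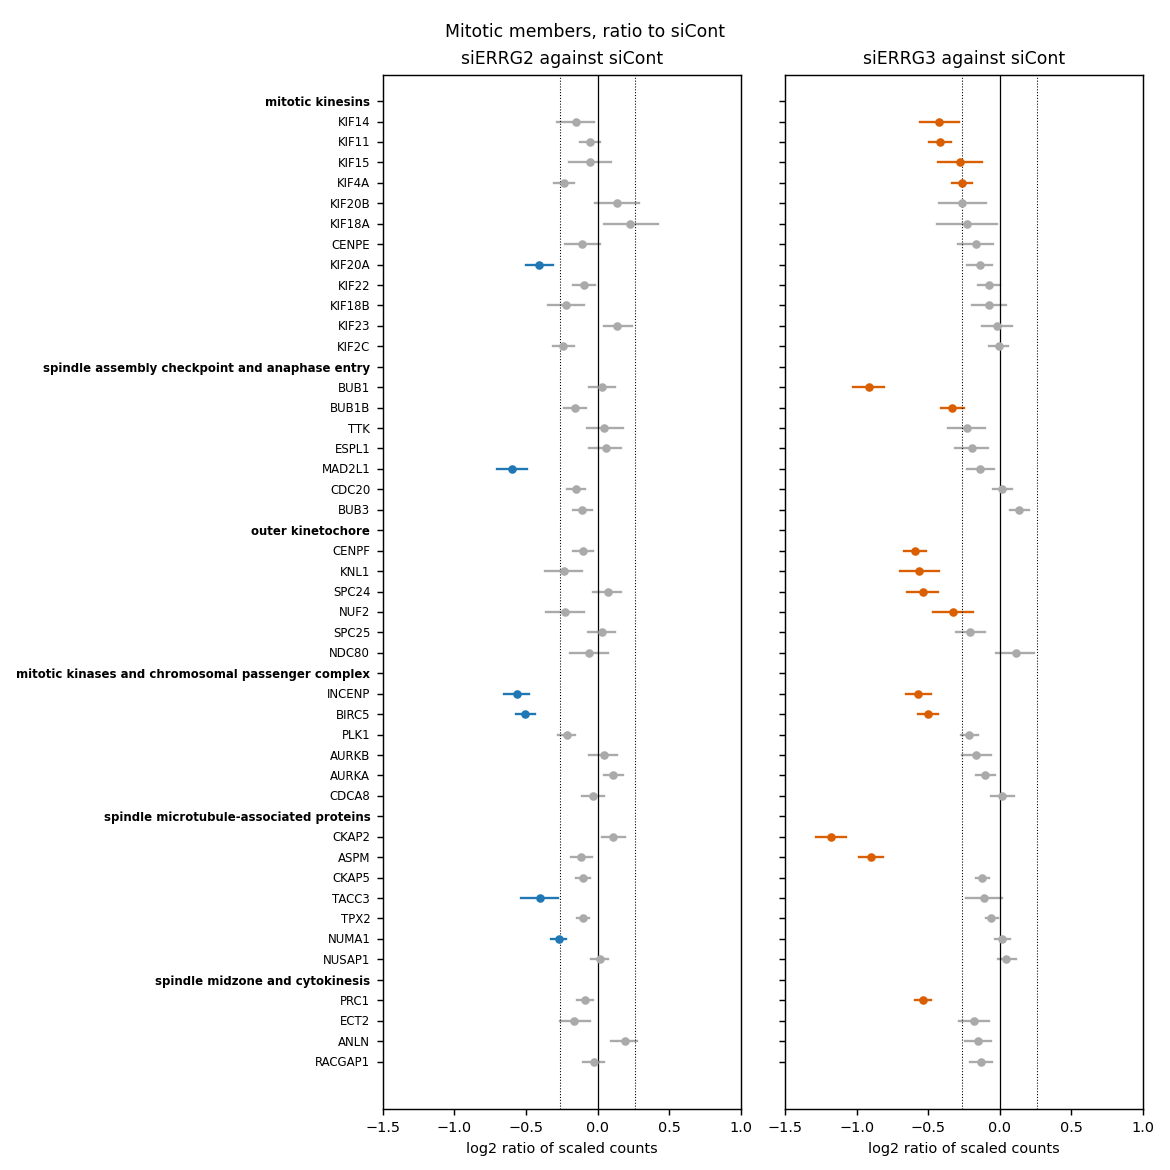
Log2 ratio of scaled counts to siCont for the 42 mitotic members, by role, with 95% counting intervals as bars, coloured where called at 1.2-fold (dotted lines) and grey otherwise. In siERRG3 15 members are coloured, all left of 0, and in siERRG2 6 are, also left of 0.

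Among the checkpoint and anaphase genes, the libraries differed in which component was low. Called lower were 1 of 7 in siERRG2 (14.3%, against 19.2% of all genes) and 2 of 7 in siERRG3 (28.6%, near 25.1%). MAD2L1 (chromosome 4, 120055623 to 120066848, GRCh38.p14) encodes MAD2, the checkpoint protein that captures CDC20 at unattached kinetochores. It had 1881 counts in siCont, 1256 with siERRG2 and 1739 with siERRG3, so the siERRG2 library stood alone, with a log2 difference of -0.60 (ratio 0.66, interval 0.614 to 0.709) against -0.14 in siERRG3 (interval 0.851 to 0.971). BUB1, a kinase that marks centromeric chromatin and recruits further checkpoint proteins, showed the other arrangement, with 1957 counts in siCont, 2023 with siERRG2 and 1054 with siERRG3. Its log2 difference was 0.03 in siERRG2 (interval 0.96 to 1.09) and -0.92 in siERRG3 (interval 0.491 to 0.571). BUB1B, the BUBR1 subunit of the mitotic checkpoint complex, had 2880, 2606 and 2329 counts and was called lower in siERRG3, by -0.33. Its gene overlaps the read-through gene BUB1B-PAK6 and its counts were not whole, so part of them may have been divided between the pair. CDC20, TTK, ESPL1 and BUB3, the remaining genes of this list, were called in neither comparison with siCont, and BUB3 was the highest of the list in siERRG3, at 0.14.

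The outer kinetochore was the role with the lowest median in siERRG3, -0.43 on the log2 scale. There 4 of 6 genes were called lower (66.7%, against 25.1% of all genes). In siERRG2 none of the 6 was called, against 19.2% lower and 16.4% higher of all genes, and the median was -0.08. CENPF, a large coiled-coil protein of the kinetochore corona, had 3499 counts in siCont, 3300 with siERRG2 and 2355 with siERRG3 (log2 difference -0.60, interval 0.628 to 0.698). KNL1, the scaffold that recruits BUB1 and BUB1B, had 1049, 901 and 722 counts, with a log2 difference of -0.56 in siERRG3 and -0.23 in siERRG2. SPC24, a subunit of the NDC80 complex that joins it to the chromosome side, had 1742, 1843 and 1218 counts, so that it was at -0.54 in siERRG3 only. The 4 subunits of the NDC80 complex did not differ alike. NUF2 was called lower in siERRG3, at -0.33, and SPC25 lay at -0.21 without passing 1.2-fold. NDC80 itself had 911, 885 and 998 counts, and its interval in siERRG3, 0.984 to 1.18, held 1. The deposited counts of KNL1, SPC24 and SPC25 were not whole.

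The chromosomal passenger complex consists of the kinase Aurora B and the scaffold subunits INCENP, survivin (BIRC5) and borealin (CDCA8). With PLK1 and AURKA these make a list of 6 genes, 2 of them called lower in each comparison with siCont (33.3%). Over all genes the shares were 19.2% in siERRG2 and 25.1% in siERRG3. INCENP (chromosome 11, 62124011 to 62153169), which binds and activates Aurora B, had 2657 counts in siCont, 1817 with siERRG2 and 1819 with siERRG3. Its log2 difference was -0.56 in siERRG2 (ratio 0.676, interval 0.637 to 0.718) and -0.57 in siERRG3 (ratio 0.673, interval 0.634 to 0.715). BIRC5 (chromosome 17, 78214253 to 78225635), which docks the complex on centromeric chromatin, had 3986, 2842 and 2867 counts, with log2 differences of -0.50 in each (intervals 0.672 to 0.74 and 0.674 to 0.742). For both genes siCont was the library apart, and the ratio of siERRG3 to siERRG2 had an interval of 0.933 to 1.06 for INCENP and 0.952 to 1.06 for BIRC5. The deposited counts of both were not whole numbers, so some of their reads were divided between genes or transcripts. The other subunits did not follow. AURKB had 1671, 1739 and 1515 counts and CDCA8 2636, 2608 and 2707, and neither was called in either comparison. The mitotic kinases PLK1, with 4949, 4315 and 4342 counts, and AURKA, with 3697, 4024 and 3505, were also under 1.2-fold, PLK1 at -0.21 in each comparison.

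Among the spindle microtubule-associated proteins the largest mitotic difference of siERRG3 was found. Called lower were 2 of 7 genes in each comparison with siCont (28.6%). Over all genes the shares were 19.2% in siERRG2 and 25.1% in siERRG3. CKAP2 (chromosome 13, 52455478 to 52476627), which nucleates and stabilizes spindle microtubules, had 2430 counts in siCont, 2661 with siERRG2 and 1093 with siERRG3. Its log2 difference was 0.11 in siERRG2 and -1.18 in siERRG3 (ratio 0.442, interval 0.411 to 0.475). ASPM (chromosome 1, 197084127 to 197146669), a spindle pole protein, had 3156, 2949 and 1719 counts, -0.11 in siERRG2 and -0.90 in siERRG3 (interval 0.505 to 0.568). For both genes the siERRG3 library was the low one. In siERRG2 the genes called lower in this list were TACC3, which with CKAP5 and clathrin cross-links kinetochore fibres, with 1142, 872 and 1074 counts (-0.41), and NUMA1, which tethers dynein at spindle poles, with 6948, 5825 and 7152 counts (-0.27). NUMA1 lay just past the 1.2-fold limit, with a ratio of 0.829, and it overlaps IL18BP and its counts were not whole. TACC3 overlaps TMEM129, and its counts were whole. TPX2, NUSAP1 and CKAP5 were called in neither comparison with siCont, with log2 differences from -0.12 to 0.05.

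At the midzone, where the spindle is cut in cytokinesis, PRC1 was the gene called. That is 1 of 4 genes lower in siERRG3 (25.0%, near the 25.1% of all genes) and 0 in siERRG2. PRC1, which bundles antiparallel microtubules, had 5664 counts in siCont, 5394 with siERRG2 and 3971 with siERRG3 (log2 difference -0.09 and -0.54, interval in siERRG3 0.662 to 0.718). ANLN, ECT2 and RACGAP1, which build and position the contractile ring, were between -0.18 and -0.13 in siERRG3 and between -0.16 and 0.19 in siERRG2, and all 6 differences were under 1.2-fold.

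In siERRG3, 4 of the 12 mitotic kinesins kept were called lower (33.3%, against 25.1% of all genes) and 0 higher, and in siERRG2 1 lower (8.33%, against 19.2%) and 0 higher. All 12 had a log2 difference under 0 in siERRG3, with a median of -0.20 and 8 intervals below 1. KIF11, the motor Eg5 that pushes spindle poles apart, had 3132 counts in siCont, 3055 with siERRG2 and 2381 with siERRG3 (-0.42 in siERRG3, interval 0.708 to 0.789). KIF14, which acts in cytokinesis, was at -0.42 too, with 1024, 933 and 777 counts. KIF15, which can stand in for KIF11, at -0.28, and the chromokinesin KIF4A, at -0.27, passed the limit narrowly. None of these 4 had whole counts, and KIF15 overlaps TMEM42. In siERRG2 the single mitotic kinesin called was KIF20A, which moves the passenger complex to the midzone, with 2173, 1658 and 2006 counts (-0.41, interval 0.707 to 0.804). KIF20A overlaps CDC23 and its counts were not whole. KIF18A, which limits chromosome oscillation, was the highest of the list in siERRG2, at 0.23 (416, 493 and 361 counts), and lay at -0.23 in siERRG3, both under 1.2-fold. The depolymerase KIF2C (3419, 2931 and 3460 counts), KIF22, KIF23, KIF18B, KIF20B and CENPE, the plus-end motor of the kinetochore, were called in neither comparison.

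Of the 13 cargo transport kinesins, 4 were called lower (30.8%) and 2 higher (15.4%) in siERRG3, shares near the 25.1% and 23.2% of all genes. In siERRG2 0 were lower (against 19.2%) and 1 higher (7.69%, against 16.4%). KIF3C, a kinesin-2 motor that pairs with KIF3A, had 688 counts in siCont, 651 with siERRG2 and 359 with siERRG3 (-0.96 in siERRG3, interval 0.45 to 0.584). KIF3A did not follow, with 773, 708 and 941 counts, and KIF3B, which is not a partner of KIF3C, had 1444, 1315 and 1471. The endosome and vesicle motors KIF13A (-0.44), KIF13B (-0.41) and KIF1B (-0.30) were also lower in siERRG3. Of the genes called in this list, KIF13A, KIF1B and KIF1C had counts that were not whole. By FPKM KIF13A differed less, with 5.14 in siCont and 4.6 in siERRG3. Called higher there were KIF1C, a motor of vesicle and mRNA transport, with 949, 921 and 1333 counts (0.47, interval 1.27 to 1.5), and KIF17, a ciliary and dendritic motor, with 28, 26 and 76 counts (1.36, interval 1.71 to 4.28). KIF16B, the gene called higher in siERRG2, had 21, 34 and 25 counts and an interval of 0.903 to 2.9, which holds 1. KIF5B, conventional kinesin, with 6086, 6592 and 6613 counts, and KIF5C, with 5971, 6009 and 6165, were called in none of the comparisons. KIF1A, with 20820, 17659 and 22056, was at -0.25 in siERRG2, just inside the limit with a ratio of 0.839, and at 0.06 in siERRG3. KIF1B, the next in level among the cargo motors, had 11215, 11359 and 9276 counts.

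The remaining kinesins had the highest median in siERRG3, 0.36 on the log2 scale, with 6 of 11 called higher (54.5%, against 23.2% of all genes) and 2 lower (18.2%, against 25.1%), and also the largest single fall. KIF26A (chromosome 14, 104138587 to 104180894), an atypical kinesin without motor activity, had 3748 counts in siCont, 2988 with siERRG2 and 1542 with siERRG3. The 3 libraries thus stood apart, with log2 differences of -0.34 in siERRG2 (interval 0.751 to 0.827), -1.30 in siERRG3 (interval 0.381 to 0.429) and -0.96 between siERRG3 and siERRG2. KIF21A, which slows microtubule growth, had 1905, 2331 and 2485 counts and was called higher in each, at 0.27 (interval 1.14 to 1.29) and 0.36 (interval 1.21 to 1.36). Its paralogue KIF21B (chromosome 1, 200969390 to 201023714) had 61 counts in siCont, 35 with siERRG2 and 101 with siERRG3, which put it on opposite sides of siCont.

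Among the kinesins of low level called higher in siERRG3 were KIF9, KIF7 and KIF27. KIF9, a motor of motile cilia, had 45 counts in siCont, 50 with siERRG2 and 114 with siERRG3 (log2 difference 1.28, interval 1.75 to 3.6). KIF7, a Hedgehog pathway regulator at the ciliary tip, had 109, 130 and 169 counts (0.60, interval 1.19 to 1.96), and its paralogue KIF27 had 136, 130 and 198 (0.51, interval 1.15 to 1.79). All 3 were at most 2.09 FPKM in every library. KIF7 overlaps TICRR and KIF27 overlaps LOC105376335, and the counts of KIF7 and KIF27 were not whole. KIF26B, with 12, 19 and 26 counts, and KIF12, with 21, 12 and 15, passed 1.2-fold on counts so low that their intervals reached from 1.04 to 4.63 and from 0.337 to 1.43 in siERRG3. KIF2A, KIF6 and KIF24 were called in neither comparison.

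**Figure D3:**
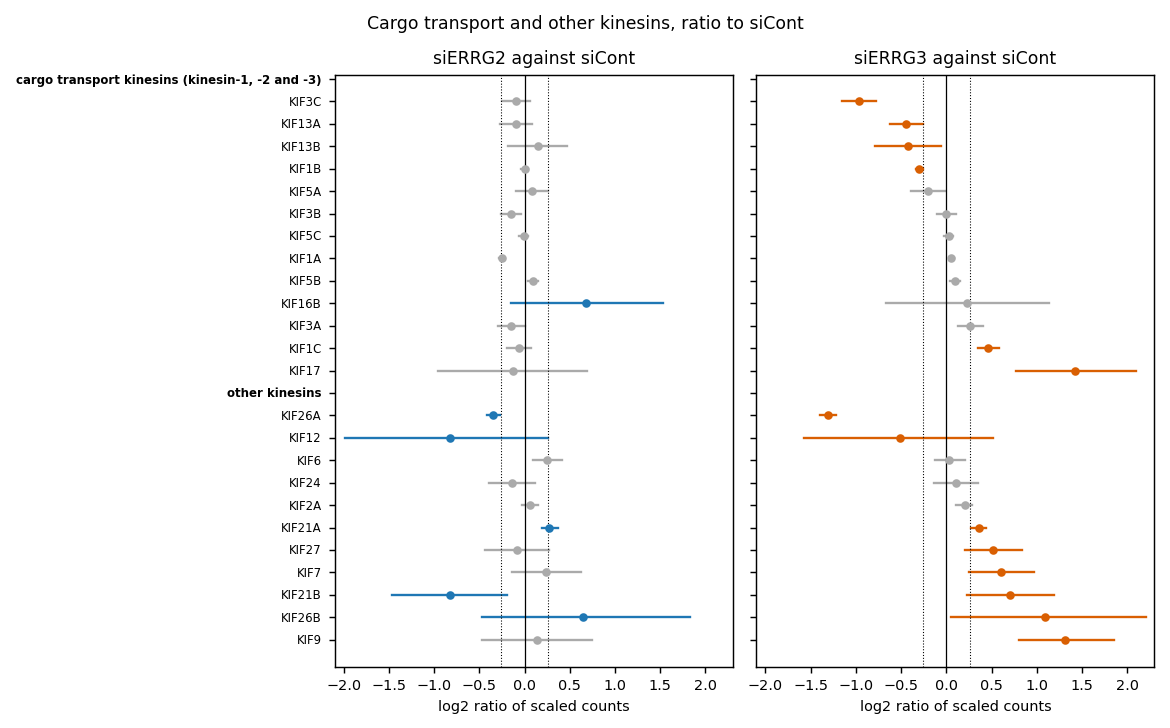
Log2 ratio of scaled counts to siCont for the 24 cargo transport and other kinesins kept by the count filter, with 95% counting intervals as bars, coloured where called at 1.2-fold (dotted lines). KIF26A lies left of 0 in both panels, KIF21B left in siERRG2 and right in siERRG3, and the bars of KIF12, KIF16B and KIF26B are the widest.

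Set directly against each other, the libraries of the siRNAs also differed, and this comparison shares a library with each of the others. In siERRG3 against siERRG2, 20 of 66 members were called lower (30.3%) and 14 higher (21.2%), against 25.3% and 26.4% of all genes. At a mean of 50 counts or more the numbers were 19 lower and 11 higher of 62 (30.6% and 17.7%, against 25.0% and 22.1%), and intervals lay below 1 in 28 members (42.4%, against 28.4%) and above 1 in 21 (31.8%, against 29.1%). The median log2 difference was -0.020, against 0.014 over all genes. The lowest were CKAP2 at -1.29, KIF26A at -0.96, BUB1 at -0.95, KIF3C at -0.86, ASPM at -0.79, SPC24 at -0.60, KIF13B at -0.56 and CENPF at -0.49. Among members averaging 50 counts or more the highest were KIF21B at 1.47, KIF9 at 1.15, KIF27 at 0.59, KIF1C at 0.53, MAD2L1 at 0.46, KIF3A at 0.40, KIF7 at 0.37 and KIF1A at 0.31. In the mitotic lists 13 were called lower and 4 higher, and the 4 higher were MAD2L1, KIF20A, TACC3 and NUMA1, all called lower in siERRG2 against siCont and under 1.2-fold in siERRG3. None of the 6 mitotic kinase and passenger complex genes was called in this comparison, with a median of -0.002.

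The annotation of the table also places genes in sets of cell cycle phase. Of the members, 20 were in the set of G2/M and 15 in that of G2, with some in both, and 38 were in no phase set. In siERRG3, 6 of the 20 G2/M members were called lower (30.0%, near the 25.1% of all genes) and 0 higher (against 23.2%). Of all 203 genes of that set kept by the filter, members included, 48 were lower (23.6%) and 22 higher (10.8%). In siERRG2 the G2/M counts were 2 lower (10.0%, below the 19.2% of all genes) and 0 higher (against 16.4%) of the 20 members. Beside them were 46 lower (22.7%) and 14 higher (6.9%) of the 203 genes, whose median was -0.098 there and -0.099 in siERRG3. Of the 15 G2 members, 2 were called lower (13.3%) and 0 higher in each comparison with siCont, a share below that of all genes. Of all 169 genes of the G2 set, 47 were lower (27.8%) and 26 higher (15.4%) in siERRG3. In siERRG2 these were 26 (15.4%) and 18 (10.7%). Few higher calls were not particular to these sets. Of the genes of the M/G1 set, 26.1% were lower and 12.3% higher in siERRG3, and 11.6% and 8.7% in siERRG2. For the G1/S set the shares were 14.7% and 14.7% in siERRG3, and 13.2% and 14.7% in siERRG2. For the S set they were 20.8% and 21.5%, and 6.71% and 12.1%, in the same order. A further set of G2/M genes held 37 members, of which 11 were called lower in siERRG3 (29.7%, near the 25.1% of all genes) and 4 in siERRG2 (10.8%, below 19.2%), with 0 higher in either. Split by sequence, 27 mitotic members kept had a CHR or its C variant in a window, and 11 of them were called lower in siERRG3 and 2 in siERRG2. Of the 8 mitotic members with a window and neither motif, 2 were called lower in siERRG3 and 3 in siERRG2. Over all genes 25.1% were called lower in siERRG3 and 19.2% in siERRG2. The medians were -0.21 with the motif and -0.15 without it in siERRG3, and -0.10 and -0.17 in siERRG2, a difference between medians smaller than the limit of 1.2-fold.

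Genes that work with the members were taken as 7 lists, whose counts stand beside 19.2% lower and 16.4% higher of all genes in siERRG2, and 25.1% and 23.2% in siERRG3. The share called lower ran from 0.0% to 27.8% over the lists in siERRG2 and from 0.0% to 33.3% in siERRG3. In the list of G2/M transcription factors with cyclin B and CDK1, 5 of 18 genes were called lower (27.8%) and 0 higher in siERRG2, and 6 (33.3%) and 0 in siERRG3. CCNB2, cyclin B2, had 2732 counts in siCont, 1672 with siERRG2 and 2015 with siERRG3 (-0.72 and -0.46). MYBL2, the factor B-MYB, had 9794, 6405 and 10357 counts (-0.63 and 0.06), and RBL1, the pocket protein p107, had 455, 473 and 290 (0.04 and -0.67). MYBL2 was thus called lower in siERRG2 and RBL1 in siERRG3.

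Of 20 inner kinetochore and CENP-A loading genes, 3 were called lower and 1 higher in siERRG2, and 3 and 5 in siERRG3. CENPB, which binds centromeric repeats, was the widest, with 3713, 2027 and 4940 counts (-0.89 and 0.39), while CENPX, a subunit of the inner kinetochore and of DNA repair complexes, had 1571, 1753 and 2348 counts (0.14 and 0.56). The other outer kinetochore and shugoshin genes, 15 in all, had 0 lower and 1 higher in siERRG2, ZWILCH at 0.32, and 1 lower and 4 higher in siERRG3, from KNTC1 at -0.30 to SKA3 at 0.32. The share of this list called higher in siERRG3 was 26.7%, near the 23.2% of all genes. The share called lower was 6.67%, against 25.1%.

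In the anaphase-promoting complex, 2 of 19 genes were called lower in siERRG2, the small subunits ANAPC16 (1086, 686 and 1026 counts) and ANAPC15 (834, 533 and 827), and 1 higher, ANAPC13 (1213, 1706 and 1566 counts, 0.48 in siERRG2). In siERRG3 0 were lower and 3 higher, led by ANAPC10 at 0.56. Of 21 cohesin and condensin genes, 3 were lower and 1 higher in siERRG2, and 4 and 2 in siERRG3. The cohesin ring subunit SMC1A had 10953 counts in siCont, 7852 with siERRG2 and 6536 with siERRG3 (-0.50 and -0.77), and the cohesin acetyltransferase ESCO1 had 320, 485 and 523 (0.58 and 0.68). Of 24 centrosome, γ-tubulin ring and augmin genes, 3 were lower and 2 higher in siERRG2, the lowest being the augmin subunit HAUS7 at -0.63, and 8 were lower and 4 higher in siERRG3, the lowest being TUBGCP3 at -0.57. Of 30 kinesin light chain, KIFC and dynein genes kept, 5 were lower and 1 higher in siERRG2, and 7 and 6 in siERRG3. The dynein intermediate chain DYNC1I2 had 2015, 2016 and 915 counts (-0.02 and -1.16), while its paralogue DYNC1I1, the neuronal form, had 724, 750 and 1124 (0.03 and 0.61). KIFAP3, the adaptor of KIF3A and KIF3B, was the lowest of this list in siERRG2, at -0.40 (828, 633 and 782 counts).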

How the data were processed

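RNA of 3 libraries of H128 cells was analysed, 1 per condition, 48 h after transfection. The members, roles and gene lists were chosen with earlier results of these data known. Per the methods, the authors aligned reads to GRCh37/hg19 with BWA and Bowtie 2; the submitters' processing notes name TopHat2, HTSeq, DESeq2, GRCh38, hg19 and hg38, with no roles. The methods describe single-end reads and the labels paired-end ones, from a kit that keeps strand. Whether counting used strand is not given in the sources used here. The authors deposited expected counts (estimated counts) per gene, not normalized, of which 54.0% to 54.9% were whole numbers, so reads that match several genes or transcripts were divided. A second deposited column, which scales like FPKM although the authors name no unit for it, was used only to compare levels between genes and as an alternative. The authors' columns of log2 ratios, Poisson p-values and adjusted values were not used.

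Expected counts were rounded to whole numbers. The 14031 genes that reached 10 counts in 1 or more libraries were scaled by TMM (edgeR 4.0.16, R 4.3.3), and differences of log2 CPM taken with a prior count of 2. With 1 library per condition no count test with replicates could be fitted. Intervals of count ratios are 95% Clopper-Pearson intervals (SciPy 1.17.1). The computation was tested on simulated data. Values are given for members with the 8 largest falls and rises at 1.2-fold averaging 50 counts or more in each comparison, for those past both 1.2-fold and counting error against siCont in each library, for the highest and lowest level of each role, for members under 10 counts, and for the extremes of each of 7 gene lists; other members are named by role, and the cell cycle sets were chosen after their values were seen. Positions are of RefSeq GRCh38.p14, in which 68 of 69 members overlap the table's own position. Promoter windows came from RefSeq by symbol. Alternatives were CPM from total counts, DESeq2 1.42.0 size factors, FPKM with a pseudocount of 0.1, no filter on counts, a filter at a mean of 50 counts, 0.5 as the prior count, and 1.5- and 2-fold limits. Of the neuroendocrine marker list, GRP was not analysed here and 1 item is not reported here. Of the epithelial markers, EPCAM was at 0.53, KRT8 at 3.71 and KRT18 at 2.57 FPKM in siCont.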

Additional observations from a re-analysis of the deposited data

Results flagged for a closer look

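KIF21B, a neuronal kinesin that limits microtubule growth, was called in opposite directions in the comparisons with siCont, with a log2 difference of -0.78 in siERRG2 and 0.69 in siERRG3. The counts behind it were 61 in siCont, 35 with siERRG2 and 101 with siERRG3, and the intervals of the ratios to siCont were 0.363 to 0.873 and 1.17 to 2.28. The difference between the libraries was not tested beyond counting error, since each has no replicate. The ratio of scaled counts of siERRG3 to siERRG2 was 2.87, with an interval of 1.94 to 4.35.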

How the results depend on the processing

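The members' counts followed the fold limit. At 1.5-fold, 3 members were lower and 1 higher in siERRG2, 6 lower and 5 higher in siERRG3, and 6 lower and 4 higher in siERRG3 against siERRG2. At 2-fold the counts were 0 and 0, 2 and 2, and 1 and 3. With a mean of at least 50 counts, 1 member was higher in siERRG2. Members beyond counting error that also passed 1.2-fold numbered 9 in siERRG2, 28 in siERRG3 and 31 in siERRG3 against siERRG2. The shares of all genes at 1.5- and 2-fold, or past both 1.2-fold and counting error, were not computed. The counts there are therefore not a comparison of the members with other genes. The fewer calls at higher limits follow from their construction. Apart from these, the counts of members stayed within 1.5 times under the scalings, prior count and filters tried, and the 40 log2 differences of named members, 240 values in all, kept their direction and stayed inside their counting intervals. No scaling moved the median of all genes by over 0.1. No paired analysis was possible because each group has 1 library, and no library could be left out. Depth limits KIF12, KIF16B, KIF17, KIF26B and KIF21B most.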
